A study of Homo sapiens with 10 samples.

Results

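A total of 337 wide H3K27ac regions were present in the second TWEAK library of SKBR3 cells and in no other SKBR3 library. SKBR3 is an established HER2-positive breast cancer line. The regions were found by merging the peaks of the 4 SKBR3 lists on chromosomes 1 to 22 and X wherever they overlapped by 1 bp or more. A merged region was kept if TWEAK replicate 2 alone held a peak in it and if it was at least 1500 bp wide. These 337 regions made up 0.543% of the 62104 merged SKBR3 regions, and each consisted of 1 peak. Their presence, width and rank in the SKBR3 lists come from the same lists, so the regions were selected on these values, which are given as a description and are not tested.

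The series profiled H3K27ac by ChIP-seq in SKBR3 and in MDA-MB-453, a second established HER2 breast cancer line. Each line was either left untreated or given the cytokine TWEAK at 10 ng/ml for 48 h, renewed at 24 h, after 8 h of starvation in Opti-MEM. Each of the 4 groups had 2 libraries, and 1 input sample per line was not analysed here. The study describes its cell line ChIP-seq as done in biological replicates. The labels number the 2 libraries of a group without naming their cultures or days, so the p-values measure the spread between these libraries.

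H3K27ac is an acetylation of histone H3 that marks active promoters and enhancers, and wide stretches of it are found at strongly active ones. TWEAK binds the receptor Fn14, a member of the TNF receptor family, which recruits TRAF proteins. Depending on the cell, it can activate canonical and non-canonical NF-κB signalling as well as MAP kinases that act on AP-1. In immunoblots of its breast cancer lines, the study reported activation of non-canonical but not canonical NF-κB. It reported JNK induction in triple-negative lines selectively and no effect on ERK phosphorylation. NF-κB and AP-1 are families of DNA-binding proteins that recognise short motifs in enhancers and recruit the acetyltransferases that deposit the mark.

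Sequences around motif matches are shown first for the 5 regions of highest −log10 q, for 3 regions near NF-κB target genes, and for 1 in the laminin gene LAMA3 as an example with several AP-1 matches. Each sequence is the plus strand of hg38, with the motif match in capitals and 45 bases on each side. The AP-1 motif was TGAGTCA, which reads TGACTCA on the opposite strand, and NF-κB matches fit the κB motif. A match is a description of the letters only. Matches of single regions are counted over their whole length, here and below. Shares of sets use the 1000 bp around the midpoint unless stated.
ATG7 intron, NF-κB, chr3:11386042-11386141: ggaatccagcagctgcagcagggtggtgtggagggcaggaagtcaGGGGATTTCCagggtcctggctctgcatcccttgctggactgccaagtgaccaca
ATG7 intron, AP-1, chr3:11386143-11386239: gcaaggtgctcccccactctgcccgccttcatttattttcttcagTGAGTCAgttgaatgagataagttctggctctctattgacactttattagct
CREB3L1 intron, NF-κB, chr11:46286911-46287010: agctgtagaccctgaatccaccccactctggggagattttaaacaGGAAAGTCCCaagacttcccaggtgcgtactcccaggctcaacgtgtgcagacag
STXBP6 intergenic, AP-1, chr14:25111496-25111592: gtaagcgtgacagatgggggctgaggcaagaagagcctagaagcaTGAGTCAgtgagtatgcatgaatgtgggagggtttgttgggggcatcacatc
PDE4D intron, NF-κB, chr5:59484112-59484211: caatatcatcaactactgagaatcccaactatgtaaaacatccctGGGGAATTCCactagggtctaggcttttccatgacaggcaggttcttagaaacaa
PLXNA4 intergenic, AP-1, chr7:131895668-131895764: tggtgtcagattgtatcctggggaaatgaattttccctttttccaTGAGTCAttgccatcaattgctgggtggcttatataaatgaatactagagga
IL6 upstream, NF-κB, chr7:22698389-22698488: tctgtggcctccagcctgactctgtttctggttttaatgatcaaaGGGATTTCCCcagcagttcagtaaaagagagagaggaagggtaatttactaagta
ICAM1 intron, NF-κB, chr19:10275128-10275227: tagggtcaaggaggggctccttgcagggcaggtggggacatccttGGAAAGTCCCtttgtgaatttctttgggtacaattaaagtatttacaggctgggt
NFKBIZ intergenic, NF-κB, chr3:101902066-101902165: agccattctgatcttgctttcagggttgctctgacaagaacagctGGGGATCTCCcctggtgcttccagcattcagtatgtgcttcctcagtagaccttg
LAMA3 intron, AP-1, chr18:23719815-23719911: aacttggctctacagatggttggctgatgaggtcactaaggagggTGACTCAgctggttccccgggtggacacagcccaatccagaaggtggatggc

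TWEAK replicate 2 was the longest SKBR3 list, with 51687 peaks against 43684 to 45371 in the other 3, and it covered 105.7 Mb against 92.1 to 96.4 Mb. The lists carry no read numbers. Sequencing depth is therefore unknown, and a region that a list lacks may have been acetylated there but not called. In bulk chromatin, acetylation in few cells and weak acetylation in all of them cannot be told apart. Of 8 markers of HER2 luminal cells, 7 had a peak no more than 1 kb from a transcription start site (TSS) in all 4 SKBR3 lists (ERBB2, GRB7, KRT8, KRT18, EPCAM, TFAP2C and SPDEF), while CDH1, which encodes E-cadherin, had none. The leukocyte and endothelial markers PTPRC, CD3E and PECAM1 had no such peak in any SKBR3 list, and COL1A1, a fibroblast collagen gene, had one in all 4. ESR1, the oestrogen receptor gene, had a TSS peak in TWEAK replicate 2 only.

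The same rule was then applied to each list in turn, to see how many wide regions a single library held alone. TWEAK replicate 2 alone held 7664 regions of any width, and 337 of them (4.40%) were at least 1500 bp wide. The corresponding numbers of wide regions were 134 of 4887 for untreated replicate 1, 17 of 2281 for untreated replicate 2 and 29 of 2446 for TWEAK replicate 1. The second largest set therefore came from an untreated library, and TWEAK replicate 1 held few. In MDA-MB-453, whose lists gave 42831 regions, the same rule returned 3, 1, 7 and 1 regions. With the SKBR3 lists trimmed to equal size, TWEAK replicate 2 still held 312 wide regions alone. The number depended on which lists were compared, rising to 515 without untreated replicate 2 and to 1034 without TWEAK replicate 1, since wide regions in both TWEAK lists then also counted.

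**Figure D1:**
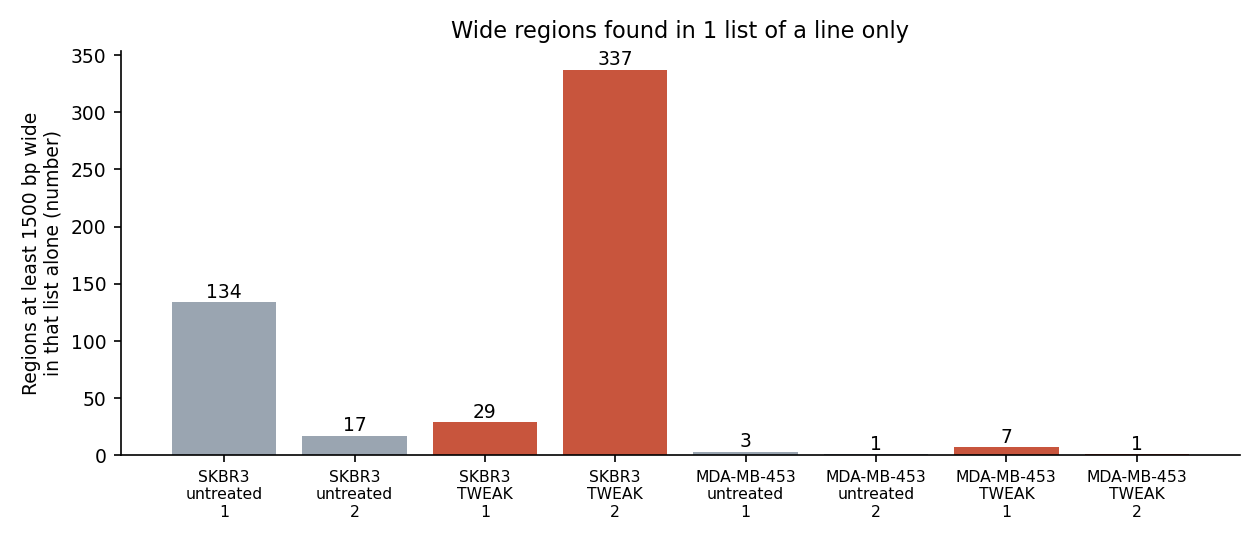
Number of merged regions at least 1500 bp wide (vertical axis) that were held by 1 list of a line alone, for each of the 8 lists (horizontal axis, grey for untreated and red for TWEAK). SKBR3 TWEAK replicate 2 held 337 and SKBR3 untreated replicate 1 held 134, while each MDA-MB-453 list held between 1 and 7.

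The 337 regions were wide but of moderate enrichment within their own list. Widths ran from 1501 to 4723 bp with a median of 1817 bp, and 112 regions reached 2000 bp and 18 reached 3000 bp. Their fold enrichment over background, as called by the authors, lay between 1.88 and 5.77 with a median of 3.33. The median of all peaks in the same list was 3.96, and that of its 22481 peaks of at least 1500 bp was 6.31. Ranked by −log10 q within the TWEAK replicate 2 list, the regions lay between percentiles 0.292 and 69.4 with a median of 34.0. Equally wide peaks of the list had a median percentile of 75.7, and the 7327 narrower regions held by this library alone had 16.8. None of the regions therefore reached the top of the list, and they stood between the narrow single-library regions and the wide peaks in general.

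Statistical support for the peaks varied. The authors' q-value was under 0.01 for 271 of the regions (80.4%) and under 1e-05 for 47 (13.9%), against 48.8% of all peaks in the list. The 134 wide regions of untreated replicate 1 alone ranked lower in their own list, with a median percentile of 13.6 and a median fold of 2.79. At the width limit, the narrowest regions kept were 1501 bp in an intron of PDLIM5 (chr4:94560780-94562280, percentile 2.98) and 1503 bp in an intron of COL4A2 (chr13:110311902-110313404, percentile 16.8). The widest regions left out were both 1497 bp, 1 in an exon of LAMB1 (chr7:107934899-107936395, percentile 8.26) and 1 nearest to HTR1E (chr6:86723026-86724522, percentile 29.5).

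**Figure D2:**
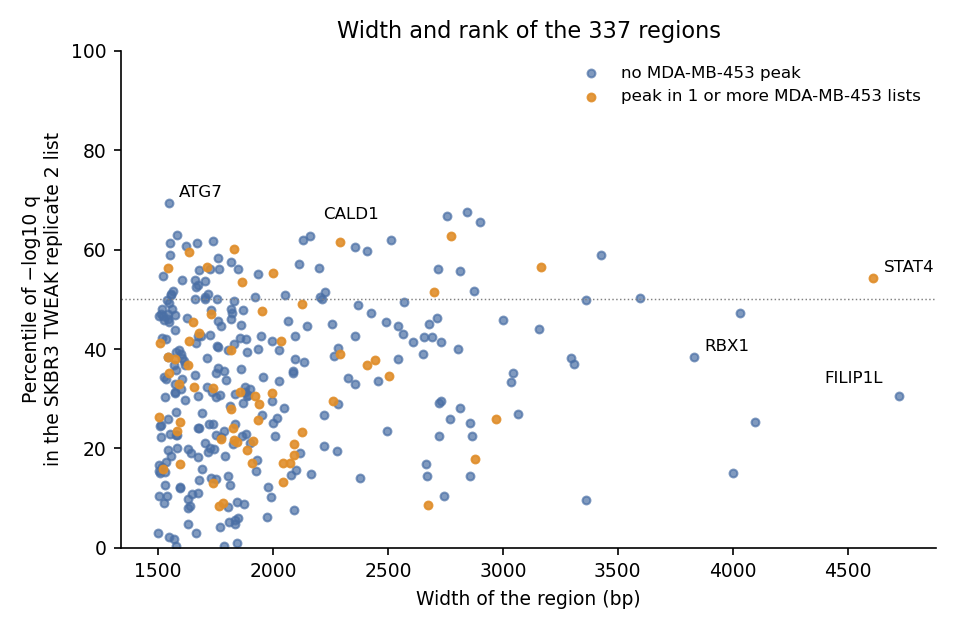
Width of each of the 337 regions in bp (horizontal axis) against the percentile of its −log10 q in the SKBR3 TWEAK replicate 2 list (vertical axis), blue without and orange with a peak in any MDA-MB-453 list. The dotted line marks the 50th percentile, above which 58 regions lie, and no region exceeds the 69.4th.

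The 5 regions of highest −log10 q lay near genes of varied function. First was a 1546 bp region in an intron of ATG7 (chr3:11385237-11386782), which encodes an enzyme of autophagy, with a fold of 5.77 and a −log10 q of 9.95. No peak of the 3 other SKBR3 lists came within 77.9 kb of it, and it held 2 NF-κB matches and 1 AP-1 match, of which 2 are printed above. A 2843 bp intergenic region followed (chr14:25110290-25113132), 60.1 kb from STXBP6, a syntaxin-binding protein gene, with a fold of 5.46. In CREB3L1, the gene of a membrane-bound transcription factor of the endoplasmic reticulum, an intronic region of 2757 bp (chr11:46285732-46288488) had a fold of 5.10. PDE4D, whose product degrades cyclic AMP, held a 2899 bp intronic region (chr5:59483445-59486343) with a fold of 5.41 and 3 NF-κB matches. None of these matches lay in the 1000 bp around the midpoint. The fifth, of 1582 bp (chr7:131895138-131896719), lay 249 kb from PLXNA4, a semaphorin receptor gene, and 0.57 kb from a start that is not protein-coding. It held 3 AP-1 matches. None of the 5 had a peak in any MDA-MB-453 list.

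The 5 widest regions were not the best supported. The widest, of 4723 bp (chr3:100030724-100035446), lay in an intron shared by CMSS1 and FILIP1L and ranked at percentile 30.6, and another of the 337 regions lay 10.4 kb away. The second, of 4612 bp (chr2:191168193-191172804), lay 16.6 kb from STAT4, which encodes a transcription factor of interleukin-12 signalling, and ranked at percentile 54.3. It was present in 3 of the 4 MDA-MB-453 lists. Regions of 4095 bp near MREG (chr2:215882981-215887075), 4033 bp in VPS53 (chr17:691051-695083) and 4002 bp in MRTFA (chr22:40524671-40528672) completed the set, at percentiles 25.2, 47.2 and 15.1. VPS53 functions in vesicle tethering, and MRTFA is a co-activator of serum response factor.

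The distance from each region to the nearest peak of the other SKBR3 lists was measured. A peak that overlapped one of another list could not be selected, so the shortest distances are limited by the rule. The median gap was 16.9 kb to untreated replicate 1, 14.5 kb to untreated replicate 2 and 10.9 kb to TWEAK replicate 1. A total of 12 regions (3.56%) had a peak of any of these lists within 1 kb, rising to 120 (35.6%) within 5 kb and 290 (86.1%) within 50 kb. Regions held by all 4 SKBR3 lists lay within 10 kb of 119 of the 337 regions (35.3%). This was close to the 36.7% of the narrow regions of the same library and the 36.6% of the wide regions in both TWEAK lists only. Among the wide regions of untreated replicate 1 alone it was 84.3%. Of all SKBR3 regions it was 24.8%, but regions of all 4 lists stay in that total and were counted as having none nearby. That share is therefore too low to compare with the others. A region gained in both TWEAK lists and neither untreated list lay within 50 kb of 89 (26.4%). The share was 16.4% of all SKBR3 regions and 11.2% of the wide regions of untreated replicate 1 alone. In the 16.4%, the gained regions themselves were likewise counted as having none nearby. These gaps use the same SKBR3 lists as the selection and are not tested.

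Most of the regions lay apart from one another. Within 100 kb of one another were 18 pairs, which held 36 regions, and no group of 3 or more. They were nearest to 313 different protein-coding genes, of which PHLDB2 and TCIM had 3 regions each and 20 others had 2. All 3 regions of PHLDB2, which encodes an adhesion-site protein that anchors microtubules, lay in its introns, 2 of them also within the overlapping gene PLCXD2, 1.78, 55.4 and 11.0 kb from its nearest TSS and at percentiles 28.5, 56.5 and 56.3. The gene-poor chromosomes 4 and 13 held the most per 1000 SKBR3 regions, 11.1 (27 of 2427) and 9.83 (13 of 1323), against 5.43 over all chromosomes. Chromosome 19, which is dense in genes, held the fewest, 0.844 (2 of 2371), although 10 of the 134 wide regions of untreated replicate 1 alone lay there. The order depended on the scale: per 10 Mb of sequence, chromosomes 1 and 7 held the most, 1.53 and 1.51, while chromosome 4 held 1.42, chromosome 13 held 1.14 and chromosome 19 again the fewest, 0.341.

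Position relative to genes was then compared between the 337 regions and other sets of SKBR3 regions, with 95% Wilson intervals that cover counting error only, as regions of 1 library are not independent. Within 1 kb of any annotated TSS lay 54 regions (16.02%, interval 12.5 to 20.3%), against 31.7% of all SKBR3 regions. The share was 32.8% for the wide regions of untreated replicate 1 alone and 16.4% for the 779 wide regions in both TWEAK lists only. For the wide regions of untreated replicate 2 alone it was 23.5% (4 of 17), and for those of TWEAK replicate 1 alone 34.5% (10 of 29). Counting protein-coding TSSs only, the 337 regions had 30 (8.90%), against 25.4% of all regions. The share at promoters was thus lower than in SKBR3 regions as a whole and close to that of the wide regions in both TWEAK lists only, although these differences were not tested.

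At the other end of the scale, 73 regions (21.7%, interval 17.6 to 26.4%) lay more than 100 kb from any protein-coding TSS, against 11.95% of all regions and 1.49% of the wide regions of untreated replicate 1 alone. The median distance was 22.3 kb, compared with 9.62 kb for all regions and 21.5 kb for the wide regions in both TWEAK lists only. By their midpoints, 170 regions (50.4%) were intronic, 14 (4.15%) exonic and 153 (45.4%) intergenic. In the 1000 bp around the midpoint, median GC content was 40.0%, lower than the 46.3% of all regions, and the median number of CpG dinucleotides was 7 against 12. In regions narrower than 1000 bp, this window reached beyond the peak. In these measures the 337 regions lay close to the narrow regions of the same library and to the wide regions in both TWEAK lists only, and away from the wide regions of untreated replicate 1 alone.

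**Figure D3:**
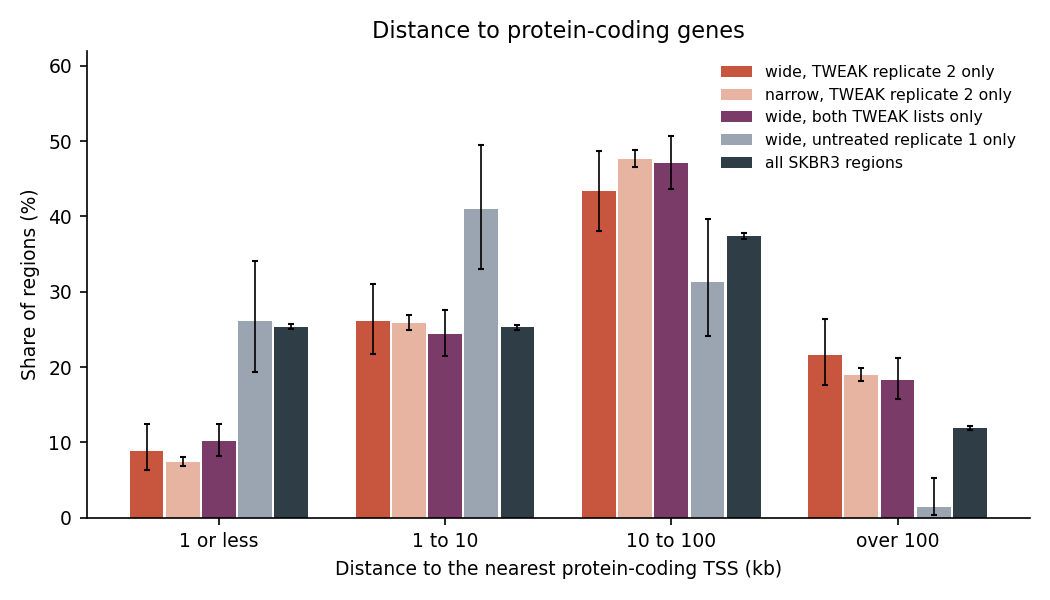
Share of regions in percent (vertical axis) by distance to the nearest protein-coding TSS in kb (horizontal axis) for 5 sets of SKBR3 regions, with bars for the share and lines for the 95% Wilson interval. Of the 337 regions, 8.90% lay within 1 kb and 21.7% beyond 100 kb, compared with 26.1% and 1.49% of the wide regions in untreated replicate 1 alone.

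Promoters were nevertheless among the 337 regions. The highest −log10 q at a protein-coding TSS was at an internal start of CALD1 (chr7:134918651-134920812, 2162 bp, fold 5.30, percentile 62.8), which encodes the actin-binding protein caldesmon. Next was the start of PDCD1LG2 (chr9:5508900-5511031, 2132 bp, fold 4.96, percentile 62.01), the gene of the immune checkpoint ligand PD-L2. A second region lay in an intron of PDCD1LG2 (chr9:5549765-5551515, percentile 22.7), 38.7 kb from the first. Within 100 kb of the promoter region, SKBR3 cells had 3 and 4 peaks without TWEAK and 4 and 9 with it. This window contains the selected regions, so the count of TWEAK replicate 2 is raised by the selection itself.

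Of the 30 regions at protein-coding TSSs, the next 8 by −log10 q belonged to genes of varied function. Regions lay at starts of NAV2 (percentile 56.1), MAPRE3 (45.04) and KIF1B (40.2), of which MAPRE3 encodes a microtubule end-binding protein and KIF1B a kinesin motor. RBX1, a subunit of cullin ubiquitin ligases, had a region of 3832 bp at percentile 38.4, and CRIM1, a transmembrane protein that binds bone morphogenetic proteins, had one of 3311 bp at percentile 37.0. GASK1B, the chromatin remodeller gene CHD6 and PALLD, which encodes the actin-associated protein palladin, followed at percentiles 38.3, 35.1 and 33.6. These 10 best supported promoter regions had no peak in MDA-MB-453. Among all 30, however, 6 had a peak in at least 1 MDA-MB-453 list, and 4 of them, at KPNB1, TEX2, TPRG1 and SCLY, had one in all 4 lists.

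Genes of 7 lists, covering pathways of this system, were next sought among the nearest protein-coding genes. The NF-κB list of 52 pathway members and targets was nearest to 6 of the regions (1.78%), against 0.335% of all SKBR3 regions, 1.54% of the wide regions in both TWEAK lists only and none of the 134 wide regions of untreated replicate 1 alone. The 6 regions were nearest to 5 genes. These encode the cytokine interleukin-6 (IL6), the neutrophil chemokine CXCL8, the adhesion receptor ICAM1, the nuclear IκB protein NFKBIZ and the inhibitory deubiquitinase A20 (TNFAIP3, 2 regions). With so few regions, these shares are counts of single loci. None of the 6 regions had an NF-κB match in the 1000 bp around its midpoint.

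At IL6, the region (chr7:22696040-22698691, 2652 bp, fold 3.04, percentile 39.0) lay 27.2 kb from the TSS, in an intron of STEAP1B. It held 2 NF-κB matches over its whole length, and the nearest peaks of the other SKBR3 lists were 21.85 to 21.96 kb away. Within 100 kb, the untreated lists held 3 and 3 peaks and the TWEAK lists 3 and 7, which covered 2.74, 2.72, 4.43 and 10.1 kb. At TNFAIP3, a region of 1957 bp (chr6:137728701-137730657, percentile 34.3) and one of 2112 bp (chr6:137736909-137739020, percentile 57.1) lay 6.25 kb apart, 137 and 128 kb from the TSS. The second overlapped a start of the non-coding gene LINC02539, which lay 8.33 kb from the first. Neither region held an NF-κB or AP-1 match. Around the second, the untreated lists held 3 and 6 peaks within 100 kb and the TWEAK lists 7 and 16. At both loci the peak count of TWEAK replicate 1 lay closer to the untreated lists than to TWEAK replicate 2, whose count the selection raises.

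The ICAM1 region (chr19:10273208-10275566, 2359 bp, percentile 42.5) was intronic, 2.09 kb downstream of the TSS, and 0.997 kb from a region gained in both TWEAK lists. Peaks within 100 kb numbered 9 and 9 without TWEAK and 11 and 15 with it. The CXCL8 region (chr4:73726399-73728262, 1864 bp, percentile 22.5) lay 12.3 kb from its TSS and held no NF-κB or AP-1 match. The NFKBIZ region (chr3:101901884-101904048, 2165 bp, percentile 14.9) lay 44.7 kb from an internal start of its gene, with 2 overlapping NF-κB matches and 1 AP-1 match. Peaks within 100 kb numbered 1 and 1 without TWEAK and 2 and 3 with it at CXCL8, and 4 and 2 without and 2 and 5 with it at NFKBIZ. These windows contain the selected regions, so the counts of TWEAK replicate 2 are raised by the selection itself.

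**Figure D4:**
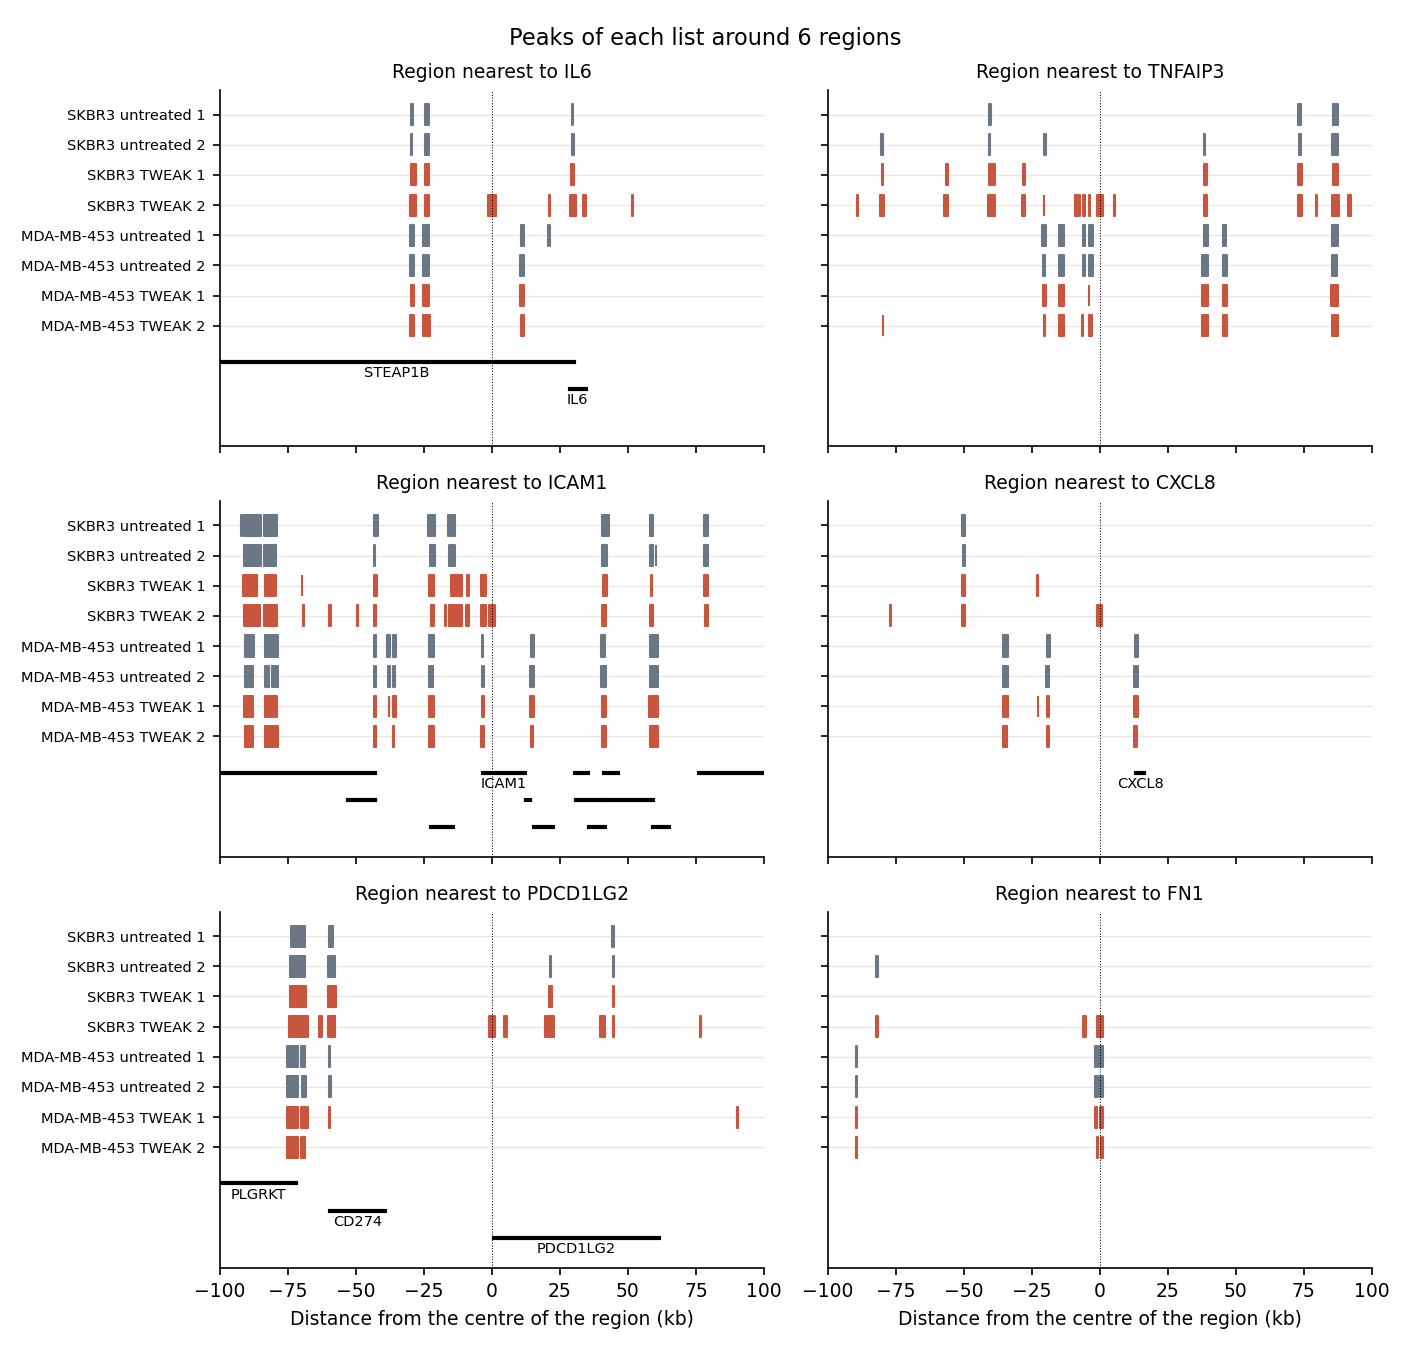
Peaks of the 8 lists (rows, grey for untreated and red for TWEAK) within 100 kb of the centre of 6 of the regions, with distance from the centre in kb on the horizontal axis and protein-coding genes as black lines. Each centre has a peak in SKBR3 TWEAK replicate 2 and in no other SKBR3 list, and only the region near FN1 has peaks of MDA-MB-453, in all 4 lists.

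Adhesion and mesenchymal genes were nearest to 4 regions (1.19%), against 0.246% of all SKBR3 regions and 0.128% of the wide regions in both TWEAK lists only. FN1, which encodes the matrix protein fibronectin, had 2 of them. The first lay at an internal start (chr2:215409687-215411438, percentile 30.4, 2 AP-1 matches), and the second 181 kb away from any FN1 start (chr2:215617465-215619873, percentile 36.8). A start of the non-coding gene LINC00607 lay 1.48 kb from the second. The second was also present in all 4 MDA-MB-453 lists, at percentiles 28.1 and 47.1 without TWEAK and 42.8 and 26.6 with it, so the groups overlapped there. LAMA3, the gene of a laminin chain of the basement membrane, held an intronic region (chr18:23718949-23720483, percentile 33.9) with 3 AP-1 matches. TGFB2, which encodes a transforming growth factor, was 140 kb from the last (chr1:218574593-218576857, percentile 38.7).

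Luminal and epithelial factors were nearest to 3 regions (0.890%), close to the 0.618% of all SKBR3 regions. The nearest genes were GATA3 (chr10:9037686-9039229, 979 kb from its nearest TSS, percentile 56.2), KLF5 (212 kb) and TRPS1 (370 kb), all transcription factors of the mammary epithelium. A link between these distant regions and the genes was not tested. The GATA3 and KLF5 regions had peaks in all 4 MDA-MB-453 lists, at percentiles 91.3 to 92.3 and 37.7 to 43.5, and the TRPS1 region in none. From the list of NAD synthesis genes, KYNU, an enzyme of the kynurenine route, was 181 kb from 1 region (0.297%, against 0.124% of all regions). No region was nearest to a gene of the AP-1 and MAF family, of TWEAK and TNF receptor signalling, or of the ERBB receptors and 17q12, which were nearest to 0.208%, 0.0821% and 0.0902% of all SKBR3 regions.

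Motifs of transcription factors were searched on both strands in the middle 1000 bp of each region, so that windows had equal length. NF-κB matches were present in 73 regions (21.7%, interval 17.6 to 26.4%), against 15.1% of all SKBR3 regions. The narrow regions of the same library had 16.8%, the wide regions of untreated replicate 1 alone 9.70% and the wide regions in both TWEAK lists only 37.6%. The small sets of wide regions of untreated replicate 2 alone and TWEAK replicate 1 alone had 17.6% (3 of 17) and 17.2% (5 of 29). The 337 regions thus lay between those shared by both TWEAK libraries and SKBR3 regions as a whole. Without TWEAK replicate 1 the share was 32.4%, since regions of both TWEAK lists then entered the set.

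The AP-1 motif was present in 125 regions (37.1%, interval 32.1 to 42.4%), against 23.9% of all regions. It was present in 33.2% of the narrow regions of the same library and 34.1% of the wide regions in both TWEAK lists only. Among wide regions of a single other library, the share was 20.9% for untreated replicate 1, 11.8% (2 of 17) for untreated replicate 2 and 10.3% (3 of 29) for TWEAK replicate 1. Either of these 2 motifs was present in 170 regions (50.4%), against 35.7% of all regions, and both in 28 (8.31%), against 3.38%. Over their whole length, 107 regions held an NF-κB match, 175 an AP-1 match and 112 neither.

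Among the other motifs, AGATAA of the GATA factors was the most frequent, in 207 regions (61.4%) against 39.9% of all regions. ACATTCC of the TEAD factors was present in 26.1% against 16.9%, TGTTTAC of the forkhead (FOX) factors in 18.7% against 16.98%, and AACCNGTT of the grainyhead-like factors in 12.2% against 9.01%. In the narrow regions of the same library, AGATAA was present in 51.7%, ACATTCC in 20.8%, TGTTTAC in 19.0% and AACCNGTT in 10.8%. In the wide regions in both TWEAK lists only, these were 51.9%, 20.5%, 18.7% and 8.22%. For the GC-rich motifs the shares were lower than in all regions. GCCNNNGGC of AP-2 was present in 13.9% against 32.1%, and TGACNNNGC of the small MAF and CNC factors in 23.7% against 33.9%. In the narrow regions of the same library they were at 18.6% and 31.7%, and in the wide regions in both TWEAK lists only at 21.7% and 31.5%.

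Because base composition moves with these shares, they were also compared among regions with a GC content of 37.0 to 43.4%, the range between the quartiles of the 337. There, NF-κB matches were present in 22.4% of 170 regions against 9.55% of all 17241 SKBR3 regions in the same range, and AP-1 in 36.5% against 28.1%. The AGATAA motif was then present in 63.5% against 54.9%, and ACATTCC in 27.1% against 20.5%. The gap to all regions thus widened for NF-κB and narrowed for AP-1, AGATAA and ACATTCC. For AP-2 the difference was nearly lost, at 16.5% against 16.1%, and for the forkhead motif the direction turned, at 21.2% against 23.4%. The grainyhead-like motif was present in 15.3% against 11.9%, and TGACNNNGC in 21.8% against 29.0%. Wide regions in both TWEAK lists only had 33.4% for both NF-κB and AP-1 in this range, 61.7% for AGATAA and 24.1% for ACATTCC. The narrow regions of the same library had 14.3% for NF-κB, 33.6% for AP-1, 57.4% for AGATAA and 21.3% for ACATTCC. Only 23 wide regions of untreated replicate 1 alone fell in this range. They had 4.35% for NF-κB, 30.4% for AP-1, 52.2% for AGATAA and, above the 337 regions, 34.8% for ACATTCC.

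**Figure D5:**
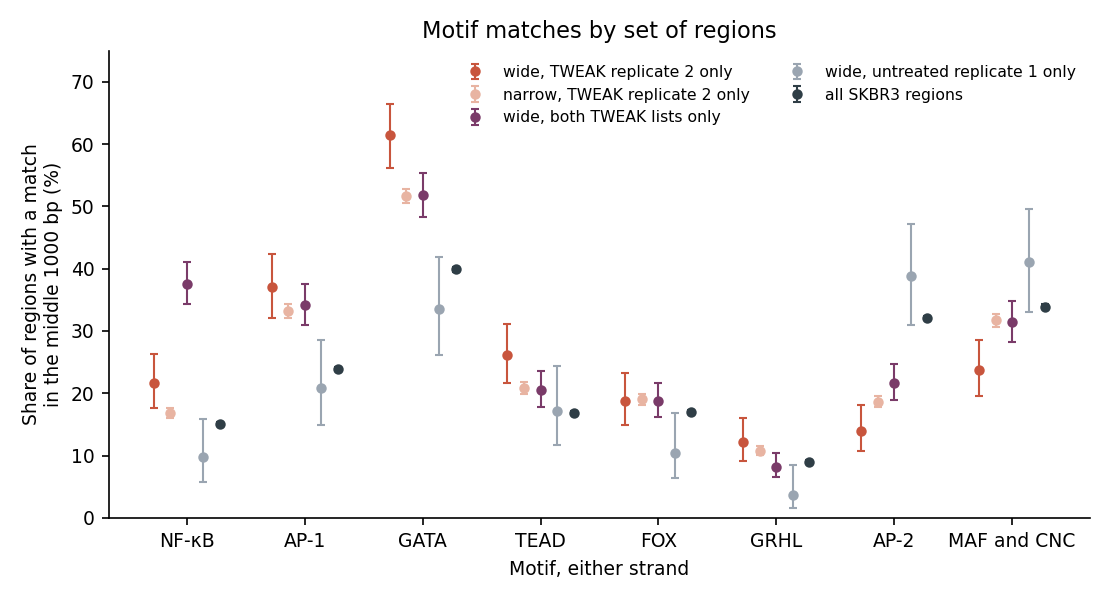
Share of regions with a motif match in the 1000 bp around the midpoint in percent (vertical axis) for 8 motifs (horizontal axis) and 5 sets of SKBR3 regions, as points with 95% Wilson intervals. For NF-κB the 337 regions (21.7%) lie between all SKBR3 regions (15.1%) and the wide regions in both TWEAK lists only (37.6%), and for AP-1 they lie at 37.1%.

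The motif shares varied among the 337 regions themselves. The 58 regions above the 50th percentile of their list had NF-κB matches in 34.5% and AP-1 matches in 51.7%, and the 279 others in 19.0% and 34.1%. Width went the other way for NF-κB, with 16.1% of the 112 regions of at least 2000 bp and 24.4% of the rest. The 89 regions within 50 kb of a region gained in both TWEAK lists had AP-1 matches in 24.7%, against 41.5% of the other 248. These splits are descriptive, and no test was made between them.

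MDA-MB-453 lists took no part in the selection and served as an independent reading of the same sites. A peak in at least 1 MDA-MB-453 list was present at 62 of the 337 regions (18.4%), against 42.9% of all SKBR3 regions. All 4 lists held a peak at 41 regions (12.2%, against 36.4% of all regions), and none of them at 275. Most of the regions were thus without a called peak in the second HER2 line, and their share with one was below that of SKBR3 regions in general. Similar shares were found in the sets most like them, with 17.6% of the narrow regions of the same library, 15.7% of the wide regions in both TWEAK lists only and 10.4% of the wide regions of untreated replicate 1 alone. These differences were not tested. No region was held by both MDA-MB-453 TWEAK lists and neither untreated list, where the share of all SKBR3 regions was 0.378%. The reverse pattern was likewise seen at none, and its share of all SKBR3 regions was also 0.378%.

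The question of whether TWEAK changed the presence of these regions in MDA-MB-453 could then be tested over libraries. The untreated lists held 47 and 50 of the regions (13.9% and 14.8%) and the TWEAK lists 51 and 55 (15.1% and 16.3%), so the groups did not overlap. Of all SKBR3 regions, the untreated lists held 39.0% and 39.9% and the TWEAK lists 39.6% and 39.4%, so there the groups overlapped. For the 337 regions, the means were 48.5 ± 2.12 (SD, n = 2) and 53.0 ± 2.83 (SD, n = 2), a difference of 4.5 regions. The exact two-sided permutation test over 6 assignments gave p = 0.333, the smallest that 2 libraries against 2 allow, and 0.667 after Benjamini-Hochberg adjustment over 2 tests. Measured as length covered within the regions, the lists had 66.0 and 65.4 kb without TWEAK and 65.0 and 66.0 kb with it, which reverses the direction. Other settings also changed the set of regions. With only peaks of q under 1e-05 the difference was −0.5 over 1355 regions, and with lists of equal size it was 1.5 over 312. A test of this size cannot give a smaller p whatever the counts, so it neither shows nor excludes an effect.

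The rank of the MDA-MB-453 peaks at these sites was compared in the same way. Their median percentile was 40.4 and 44.9 without TWEAK and 41.3 and 39.0 with it, and the groups overlapped. The means were 42.7 ± 3.20 (SD, n = 2) and 40.2 ± 1.65 (SD, n = 2), a difference of −2.48 percentile points (exact two-sided permutation p = 0.667, adjusted p = 0.667). The direction turned with only peaks of q under 1e-05, to 0.147 points over 1355 regions. It was −0.153 points over 312 regions once the lists were trimmed to equal size.

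Individual regions could nevertheless rank very differently in the 2 lines. The highest-ranked in MDA-MB-453 lay at a start of TPRG1 (chr3:189308422-189310205), at percentile 8.94 in SKBR3 TWEAK replicate 2 and between 99.6 and 99.7 in all 4 MDA-MB-453 lists. A region 149 kb from MAX, the gene of the dimerisation partner of MYC (chr14:65251521-65253198), was at percentile 43.3 in SKBR3 and at 98.1 to 98.9 in MDA-MB-453. Another, 269 kb from PLK2, a polo-like kinase gene (chr5:58183815-58186076), was at percentile 29.5 in SKBR3 and at 96.3 to 97.5 in MDA-MB-453. At these sites the peak was in 1 SKBR3 library only, where it ranked below the median, and it was among the top peaks of the second line with and without TWEAK. Regions held by all 4 MDA-MB-453 lists had AP-1 matches in 19.5% and AGATAA in 75.6% of 41, while the 275 without any MDA-MB-453 peak had 38.5% and 58.5%.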

How the data were processed

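The data were H3K27ac ChIP-seq peak lists, 4 from SKBR3 libraries and 4 from MDA-MB-453 libraries. According to the submitters' processing notes and the study's methods, reads were trimmed with Trimmomatic and mapped to hg38 with Bowtie2, and peaks were called per library with MACS2 against input. Blacklisted regions were removed. Versions and calling options are not given in the sources used here. Beside its position, each deposited peak has a score in whole numbers, its fold over background as a ratio, and p- and q-values as −log10. Summits are missing from the layout, as in broad-peak output of MACS2. The score was not used. Fold and −log10 q were used only within a list, as values or percentiles. No read counts were used, so depth is unknown, and the study's read-based DiffBind analysis was replaced by presence in each list.

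Sequence names and ends were checked against hg38, and 0 peaks fell outside it. A list held a merged region when a peak overlapped it by 1 bp. TSSs and genes came from GENCODE release 44. A region was intronic or exonic by its midpoint, and distances ran from its edge. Scripts used Python 3.11.15, pandas 2.3.3, numpy 2.4.6, scipy 1.17.1 and pyfaidx 0.9.0.4 and were tested on simulated data. Repeat content was not computed, as the reference holds no repeat masking.

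The regions, the gene lists (169 genes in 7 lists), the motifs and the alternatives were chosen with earlier results of these data known. Regions were named by rule: the 5 of highest −log10 q, the 5 widest, the 3 highest-ranked in all 4 MDA-MB-453 lists, up to 10 at protein-coding TSSs, the groups of most regions within 100 kb, those nearest to a listed gene, and those at the width limit. PHLDB2, TCIM, KPNB1, TEX2 and SCLY were named after their values were seen. Tests were exact permutation tests over the 4 MDA-MB-453 libraries. Alternatives were a stricter q, 50% overlap, merging across 1 kb, other widths and windows, lists of equal size, a replicate block and leaving out each library. A comparison at equal GC content was added after seeing the data.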

Additional observations from a re-analysis of the deposited data

How the results depend on the processing

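The number of regions, 337, depended most on the settings. It was 1355 with only peaks of q under 1e-05, since weaker peaks of the other lists were then dropped, 1396 when a list had to cover 50% of a region, 1294 at a width of 1000 bp and 112 at 2000 bp, and between 361 and 1034 when each other SKBR3 library was left out. Without TWEAK replicate 2 the rule cannot be applied. It stayed at 338 with peaks merged across 1 kb or with every sequence counted, and at 312 with lists of equal size. The difference between TWEAK and untreated MDA-MB-453 lists, 4.5 regions, was −0.5 under the stricter q and −0.20 kb as covered length. It was 1.5 regions with lists of equal size, and between 2.5 and 11.5 regions with libraries left out. Settings that altered the SKBR3 lists also altered the set of regions, so the 11.5 was counted over 1034 regions, not 337. With the replicate number as a block, the paired difference stayed at 4.5 regions (replicate block, exact permutation p = 0.5, the smallest that 2 pairs allow), and that in median percentile at −2.48 (exact permutation p = 1). The difference in median percentile was 0.147 under the stricter q and between −4.74 and −0.219 with libraries left out. The share within 10 kb of a region of all 4 lists (35.3%) was 21.99% under the stricter q, 27.7% at 50% overlap and between 35.9% and 40.7% with libraries left out. The AP-1 share (37.1%) was 30.7% at 50% overlap, between 31.7% and 36.8% with libraries left out, 19.3% in 500 bp and 51.9% over the whole region. The NF-κB share (21.7%) was 16.1% at a width of 2000 bp, between 18.6% and 32.4% with libraries left out, 10.4% in 500 bp and 31.8% over the whole region. The share with any MDA-MB-453 peak (18.4%) ran from 16.9% to 25.2% with libraries left out. The share within 1 kb of a TSS (16.02%) was 26.1% with a 2.5 kb window, 8.90% for protein-coding TSSs only and between 15.1% and 17.2% with libraries left out. The cause of these shifts was not tested beyond what each setting does by construction. The design limits what can be said: the exact permutation test of 2 libraries against 2 cannot give a p under 0.333, depth is unknown, and presence in 1 list has no replicate.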

Other observations

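Outside chromosomes 1 to 22 and X, 1 further region met the same rule, and it was not on chromosome Y. The TWEAK replicate 2 list held 81 peaks on such sequences.

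Some neighbouring regions had unlike ranks. Near SLC44A3, which encodes a choline transporter-like protein, regions of 2092 bp (chr1:94708795-94710886) and 2358 bp (chr1:94738139-94740496) lay 27.3 kb apart, at percentiles 7.55 and 60.5. Near GPR141, a G protein-coupled receptor gene, regions of 2380 bp (chr7:37669694-37672073) and 1637 bp (chr7:37712840-37714476) lay 40.8 kb apart, at percentiles 14.1 and 59.5. The second GPR141 region was present in all 4 MDA-MB-453 lists, at percentiles 46.7 to 54.1, and the first in none.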
